A study of Mus musculus with 6 samples.

Results

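This report covers 9 enzymes that make serine and pass its carbon through folate to thymidylate, *Phgdh*, *Psat1*, *Psph*, *Shmt1*, *Shmt2*, *Mthfd1*, *Mthfd2*, *Mthfd1l* and *Tyms*, in activated group 2 innate lymphoid cells (aILC2s) of the mouse lung. They were taken by gene symbol from the 16381 genes with a value, and all 9 were among the 14419 genes with enough counts to be tested. The aILC2s were sorted from the lungs of wild type BALB/cJ mice, female and 6 to 8 weeks old in the methods of the study, after intranasal IL-33 at 0.5 µg per day for 3 days. Both groups shared that challenge and the sort, and were then cultured for 24 h in 250 µM melatonin or in DMSO, the vehicle. Bulk RNA sequencing was done on 3 samples per group, and the labels do not say whether these came from separate mice, so p-values measure the spread between these samples only. The values are normalized counts, that is, read counts per gene that the authors estimated and divided by a size factor per sample.

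Serine is made from the glycolytic intermediate 3-phosphoglycerate in the cytosol by PHGDH, PSAT1 and PSPH in turn. Serine hydroxymethyltransferase then splits serine into glycine and a methylene group, which is loaded onto tetrahydrofolate, in the cytosol by SHMT1 and in mitochondria by SHMT2. In mitochondria MTHFD2 and MTHFD1L oxidise this group to formate, which leaves for the cytosol, where MTHFD1 puts it back on folate for purines, thymidylate and methionine. TYMS uses the methylene form to make dTMP for DNA. Proliferating lymphocytes are known to depend on these enzymes for nucleotides, and glycine from the same route is a building block of glutathione.

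Sample totals of estimated counts lay between 17056165 and 20511599. All 12 ILC2 markers had values, and their summed level was between 197261 and 210885 normalized counts in vehicle and between 138671 and 157921 in melatonin samples. *Il5* and *Il2ra* made up most of these sums except in melatonin replicate 1, and 7 of the 12 were lower, 2 were higher and 3, with *Gata3* and *Ptprc* among them, were not called. Of 5 myeloid markers (*Lyz2*, *Itgam*, *Csf1r*, *Adgre1*, *Itgax*), all had values and 4 were lower with melatonin, with sums between 1149 and 1334 in vehicle and between 256 and 698 in melatonin samples. *Lyz2* made up most of these sums, and *Itgam* and *Csf1r* were at 0 in melatonin replicate 1. Each of the 4 myeloid calls was lost in some fit with 1 sample left out. *Itgam*, *Adgre1* and *Itgax* were not called without vehicle replicate 2, nor *Lyz2*, *Itgam* and *Itgax* without vehicle replicate 3. The log2 fold changes of *Lyz2*, *Itgam* and *Itgax* were −1.13, −3.43 and −2.82, and −0.72, −2.21 and −1.55 without melatonin replicate 1. Of all genes tested, 24.7% were called lower and 24.5% higher. Of 5 epithelial markers, the sums were between 893 and 2229 in vehicle and between 1039 and 1237 in melatonin, with 3 lower and 1 higher, and only 2 of 6 T cell markers, 1 of 4 B cell markers, 2 of 6 eosinophil and mast cell markers and 1 of 5 stromal and endothelial markers had a value in the list used here. The melatonin epithelial sum was nearly all *Epcam*, which rose from 667 ± 67.6 to 1097 ± 116, while *Scgb1a1*, *Sftpc* and *Krt8* fell, to at most 1.01, 6.54 and 0 in the melatonin samples from 21.5 to 1045, 122 to 389 and 4.67 to 105 in the vehicle samples. Both T cell markers and *Pecam1*, the endothelial one, were lower, with T cell sums between 1402 and 1517 in vehicle and between 391 and 600 in melatonin, nearly all of it *Trbc1*, while *Trac* was at 13.1 or less in every sample and lost its call without vehicle replicate 2 or melatonin replicate 2, and *Pecam1* between 1001 and 1066 and between 310 and 416. The 4 Y-linked genes *Ddx3y*, *Eif2s3y*, *Kdm5d* and *Uty* had values in the 3 vehicle samples and melatonin replicate 1 and were at 0 in melatonin replicates 2 and 3, in which *Xist* was at 579 and 1091 normalized counts. Y-linked transcripts in 4 of 6 libraries go against the female mice of the methods. The vehicle group held 3 libraries with them and the melatonin group 1, so the sex of the donors was unbalanced between the groups, and its part in the differences was not tested. The changes of the 9 enzymes are also given with melatonin replicate 1 apart or left out. The counts of the other gene lists, but not of the marker lists, are also given without that replicate. None of the 9 genes lies on a sex chromosome.

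With melatonin, 6 of the 9 enzymes fell and none rose at an adjusted p-value under 0.05 in limma. The genes that fell were *Phgdh*, *Shmt1*, *Shmt2*, *Mthfd1*, *Mthfd1l* and *Tyms*, while *Psat1*, *Psph* and *Mthfd2* were not called. By the same test 49.2% of all genes tested were called, 24.7% as lower and 24.5% as higher. At an unadjusted p under 0.05 in limma, which 56.4% of genes tested reached, the count was also 6 lower and none higher, and limma's voom on estimated counts gave 6 and 0. All 9 log2 fold changes were negative, with a median of −0.70 where the median over all genes tested was −0.00. For 8 of the 9 all melatonin values lay under all vehicle values, as for 30.3% of genes tested, and *Mthfd2* was the exception. The reverse, all melatonin values above, held for none of the 9 and for 30.0% of genes tested. Summed, the 9 transcripts took between 0.214% and 0.216% of all normalized counts in the vehicle samples, and 0.123%, 0.173% and 0.175% in melatonin replicates 1, 2 and 3. In bulk samples, fewer cells expressing a gene and less RNA per cell cannot be told apart. The myeloid marker sum, the T cell marker sum, nearly all of it *Trbc1*, and the levels of *Pecam1*, *Scgb1a1*, *Sftpc* and *Krt8* were lower in the same samples. The part of these markers in the falls of the enzymes was not tested. The sort in the methods of the study kept CD45+ cells without CD3ε, TCRβ, TCRγδ, CD11b, CD11c or Gr-1, among other markers. Whether cells outside this gate were present in the samples was not tested. The library names carry numbers in separate blocks for the treatments, with no statement of what the blocks are, and whatever differs between them cannot be told apart from melatonin.

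**Figure D1:**
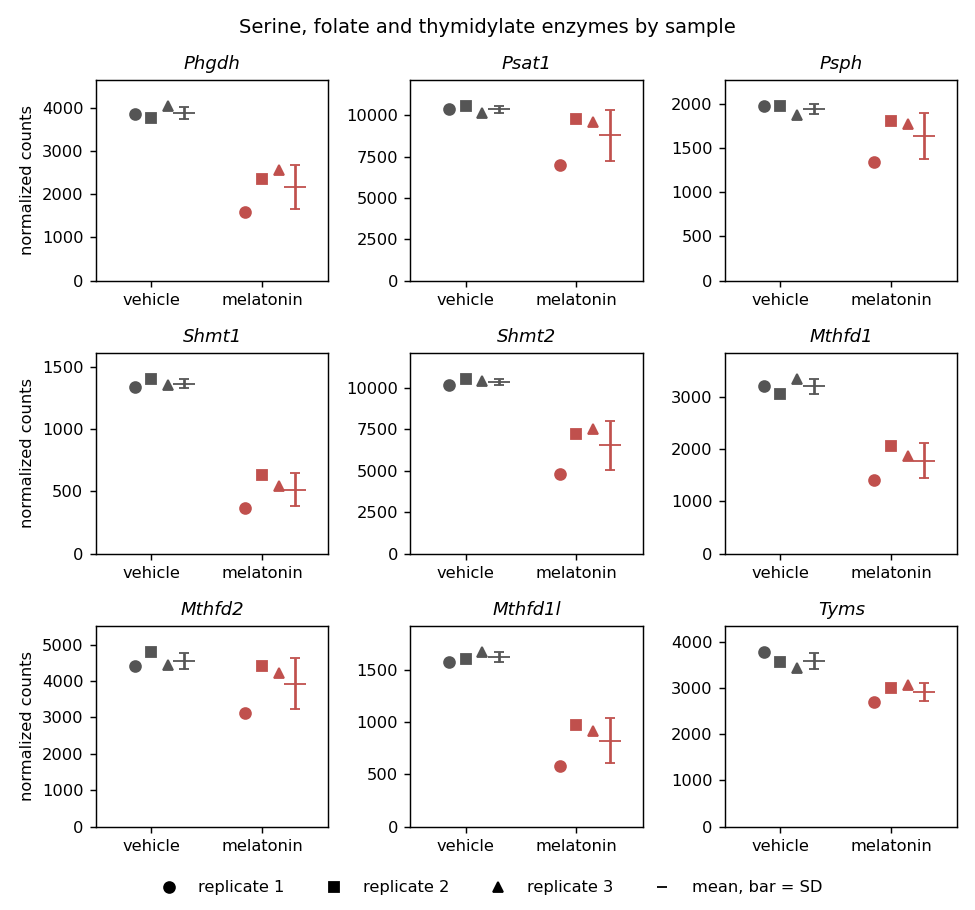
Normalized counts (linear axes from 0) of the 9 enzymes in each vehicle (grey) and melatonin (red) sample, with replicates 1, 2 and 3 as circles, squares and triangles and the mean ± SD (n = 3) beside them. Melatonin replicate 1 is the lowest of the 6 samples in all 9 panels, and *Mthfd2* is the panel in which the groups overlap.

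*Phgdh* (ENSMUSG00000053398, chromosome 3 of GRCm39, 98220484 to 98255047, minus strand) encodes the dehydrogenase that commits 3-phosphoglycerate to serine. It was at 3847, 3772 and 4041 normalized counts in vehicle replicates 1, 2 and 3 and at 1597, 2359 and 2550 in melatonin replicates 1, 2 and 3. The groups did not overlap, and the highest melatonin value lay well under the lowest vehicle value. The mean fell from 3887 ± 139 (SD, n = 3) to 2169 ± 505, a change of −0.87 ± 0.16 on the log2 scale (estimate ± SE, adjusted p = 0.00217 in limma). Melatonin replicate 1 was at 41.1% of the vehicle mean and melatonin replicates 2 and 3 at 63.2%.

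*Psat1* (ENSMUSG00000024640, chromosome 19, 15882039 to 15924701, minus strand) encodes the aminotransferase of the middle step, which takes its amino group from glutamate. Its normalized counts were 10366, 10559 and 10133 in vehicle and 6994, 9776 and 9559 in melatonin replicates 1, 2 and 3. The melatonin values were all below the vehicle values, but replicates 2 and 3 lay close to them, at 93.4% of the vehicle mean, and replicate 1 was at 67.6%. The log2 fold change of −0.25 (95% interval −0.54 to 0.03, limma adjusted p = 0.118) was not called, and it was −0.10 without melatonin replicate 1 and also under quantile normalization. *Psph* (ENSMUSG00000029446, chromosome 5, 129841925 to 129864513, minus strand) encodes the phosphatase of the last step and had the same shape, with 1975, 1976 and 1877 in vehicle and 1340, 1808 and 1769 in melatonin. Its log2 fold change was −0.26 (95% interval −0.52 to 0.01, limma adjusted p = 0.098), and its adjusted p lay between 0.0613 and 0.214 under the alternatives. Melatonin replicate 1 was at 69.0% of the vehicle mean and replicates 2 and 3 at 92.1%, and without replicate 1 the log2 fold change was −0.12. The start of *Psph* overlaps the start of *Cct6a*, a chaperonin gene on the other strand, by 452 exonic bases. Reads from this stretch may be counted for either gene, since the sources do not state that strand was used, and *Cct6a* itself fell from 10897 ± 167 to 6905 ± 1490 normalized counts. The transcript of the first enzyme of serine synthesis thus fell, those of the next steps had intervals that include no change, and the difference between these changes was not tested.

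The promoter of *Phgdh* is printed because it was the only one of the 9 with a match to the antioxidant response element bound by NRF2, the factor that the study follows. The windows span 250 bases before to 50 bases after the canonical start site in GRCm39, read from the reference genome. Searched on both strands were TGACNNNGC for NRF2, TGATGNAAN for the element through which ATF4 is known to drive amino acid synthesis genes, the E-box CACGTG of MYC and the clock factors, and the E2F forms TTTCCCGC and TTTGGCGC. None of these letters overlapped in a window of the 9. A match to TGACNNNGC was found in 1 of the 9 windows and in 13.7% of the 12064 windows of tested protein-coding genes. Among the windows of genes called lower the share was 13.3%. TGATGNAAN was in none of the 9 and in 2.35% of all, and the E2F forms were in none and in 1.99% and 1.01% of all. The match in *Phgdh* lies from 32 to 24 bases before the start, reads TGACTCCGC on the opposite strand, and is in capitals in the window at chr3:98247257-98247556, minus strand.
Phgdh: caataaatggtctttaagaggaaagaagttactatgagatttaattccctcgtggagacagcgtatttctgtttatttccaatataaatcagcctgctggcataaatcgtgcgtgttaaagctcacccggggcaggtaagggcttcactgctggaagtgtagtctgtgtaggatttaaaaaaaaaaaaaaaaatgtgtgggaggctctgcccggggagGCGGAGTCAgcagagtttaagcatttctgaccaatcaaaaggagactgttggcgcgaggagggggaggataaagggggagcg
*Nfe2l2*, the gene of NRF2, rose from 948 ± 50.5 to 2215 ± 386 normalized counts in the same samples (log2 fold change 1.21, limma adjusted p = 0.000155). A link between NRF2 and *Phgdh* was not tested.

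*Shmt1* (ENSMUSG00000020534, chromosome 11, 60661185 to 60708167, minus strand) had the largest fall of the 9. The vehicle values were 1337, 1404 and 1357 normalized counts, and melatonin replicates 1, 2 and 3 were at 370, 635 and 539. Every melatonin sample was far under the vehicle samples, which lay within a CV of 2.49%. The mean fell from 1366 ± 34.1 to 514 ± 134, a change of −1.44 ± 0.17 on the log2 scale (estimate ± SE, adjusted p = 0.000323 in limma). The lowest estimated count behind these values was 396, for which counting alone gives an error of 5.03%. Melatonin replicate 1 was at 27.1% of the vehicle mean and melatonin replicates 2 and 3 at 43.0%. *Shmt1* shares 184 exonic bases with *Smcr8* on the opposite strand, whose level was low at 292 ± 30.7 normalized counts in vehicle and 232 ± 24.1 in melatonin. Its promoter, at chr11:60702047-60702346 on the minus strand, is printed as that of the gene with the largest fall, and it has no capitals because none of the searched letters was in it.
Shmt1: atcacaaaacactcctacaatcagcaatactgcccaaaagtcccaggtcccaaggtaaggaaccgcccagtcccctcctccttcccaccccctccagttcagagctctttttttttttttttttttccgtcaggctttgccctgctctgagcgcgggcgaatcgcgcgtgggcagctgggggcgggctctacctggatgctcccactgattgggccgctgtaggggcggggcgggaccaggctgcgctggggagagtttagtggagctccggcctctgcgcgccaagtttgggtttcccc

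*Shmt2* (ENSMUSG00000025403, chromosome 10, 127352266 to 127358323, minus strand), the mitochondrial isozyme, was at 10170, 10522 and 10383 normalized counts in vehicle and at 4788, 7212 and 7532 in melatonin replicates 1, 2 and 3. The groups were apart, and melatonin replicate 1 was again the lowest, at 46.2% of the vehicle mean against 71.2% for replicates 2 and 3. The mean fell from 10358 ± 178 to 6511 ± 1500, a change of −0.70 ± 0.15 on the log2 scale (estimate ± SE, adjusted p = 0.00587 in limma).

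Of the folate enzymes that act on this carbon in mitochondria, *Mthfd1l* fell and *Mthfd2* was not called. *Mthfd1l* (ENSMUSG00000040675, chromosome 10, 3922870 to 4117081, plus strand), which releases formate, was at 1578, 1603 and 1670 normalized counts in vehicle and at 576, 975 and 912 in melatonin replicates 1, 2 and 3. No sample of one group reached the other. The mean went from 1617 ± 47.6 to 821 ± 214, a change of −1.01 ± 0.18 on the log2 scale (estimate ± SE, adjusted p = 0.00185 in limma), with replicate 1 at 35.6% and replicates 2 and 3 at 58.3% of the vehicle mean. *Mthfd2* (ENSMUSG00000005667, chromosome 6, 83282673 to 83302890, minus strand), the dehydrogenase and cyclohydrolase of the same route, was at 4402, 4800 and 4448 in vehicle and at 3124, 4424 and 4225 in melatonin. Melatonin replicate 2 lay above vehicle replicate 1, so the groups overlapped. Its log2 fold change was −0.23 (95% interval −0.52 to 0.06, limma adjusted p = 0.163), and without melatonin replicate 1 it was −0.07, the value nearest to 0 among the alternatives.

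In the cytosol, *Mthfd1* (ENSMUSG00000021048, chromosome 12, 76301984 to 76366588, plus strand) encodes a protein with 3 activities, synthetase, cyclohydrolase and dehydrogenase. It was at 3216, 3050 and 3344 normalized counts in vehicle and at 1403, 2058 and 1871 in melatonin replicates 1, 2 and 3. The highest melatonin value was under the lowest vehicle value. The mean fell from 3203 ± 147 to 1778 ± 337, a change of −0.87 ± 0.13 on the log2 scale (estimate ± SE, adjusted p = 0.000976 in limma), with replicate 1 at 43.8% and replicates 2 and 3 at 61.3% of the vehicle mean.

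*Tyms* (ENSMUSG00000025747, chromosome 5, 30263198 to 30278633, minus strand), thymidylate synthase, had the smallest fall of the called genes and the smallest CV among melatonin samples, 6.85%. It was at 3782, 3566 and 3439 normalized counts in vehicle and at 2687, 3003 and 3057 in melatonin replicates 1, 2 and 3. The groups did not overlap, and the gap between them was smaller than for the other called genes. On the log2 scale this was −0.30 ± 0.08 (estimate ± SE, adjusted p = 0.014 in limma). Without vehicle replicate 1 it was −0.27 with an adjusted p of 0.0652 in limma, against a range from 0.00557 to 0.0493 under the other settings. Among 20 genes of DNA replication and the cell cycle, which *Tyms* is known to accompany, 8 were lower and 3 were higher, or 40.0% and 15.0% beside 24.7% and 24.5% of all genes tested, with a median log2 fold change of −0.10. Without melatonin replicate 1, 9 were lower and 4 higher. *Pcna*, the replication clamp, had −0.80 and *Ccnb1* −0.46, and the proliferation marker *Mki67* had −0.38 (limma adjusted p = 0.0222), a call that was lost without vehicle replicate 1 or 3 or melatonin replicate 2. *E2f1* at 1.28 and *Ccne2* at 0.48, both genes of S phase entry, had the largest rises. *E2f1* varied widely in vehicle, at 707, 1348 and 1833 normalized counts in replicates 1, 2 and 3, a CV of 43.6%. In melatonin replicates 1, 2 and 3 it was at 3674, 3085 and 2221. The part of the cell cycle in the fall of *Tyms* was not tested. The promoter of *Tyms*, at chr5:30278578-30278877 on the minus strand, was the only one of the 9 that held the E-box CACGTG, in capitals from 57 to 52 bases before the start, as did 10.1% of all windows.
Tyms: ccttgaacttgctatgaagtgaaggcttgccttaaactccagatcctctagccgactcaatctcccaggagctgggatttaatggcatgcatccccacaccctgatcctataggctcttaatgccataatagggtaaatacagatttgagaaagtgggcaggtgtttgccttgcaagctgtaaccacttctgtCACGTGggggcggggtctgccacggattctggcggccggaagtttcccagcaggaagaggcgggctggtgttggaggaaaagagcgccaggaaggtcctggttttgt

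Compared per kilobase of transcript, the mRNAs of the 9 enzymes covered a wide range of levels. In vehicle, *Shmt2* was first at 4510 ± 77.3 normalized counts per kb, followed by *Psat1* at 3951 ± 81.4, *Mthfd2* at 2166 ± 104 and *Phgdh* at 2053 ± 73.4. *Mthfd2* and *Phgdh* overlapped and were not separated by their spread, while every other pair of neighbours in this order was apart. *Tyms* at 1132 ± 54.7, *Mthfd1* at 959 ± 44.1 and *Psph* at 800 ± 23.4 stood in the middle, and *Shmt1* at 477 ± 11.9 and *Mthfd1l* at 435 ± 12.8 were last. In melatonin, *Psat1* came first at 3350 ± 591, ahead of *Shmt2* at 2834 ± 653, but their ranges overlapped. *Shmt1* was last at 180 ± 46.9 per kb, behind *Mthfd1l* at 221 ± 57.7, and their ranges overlapped too.

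**Figure D2:**
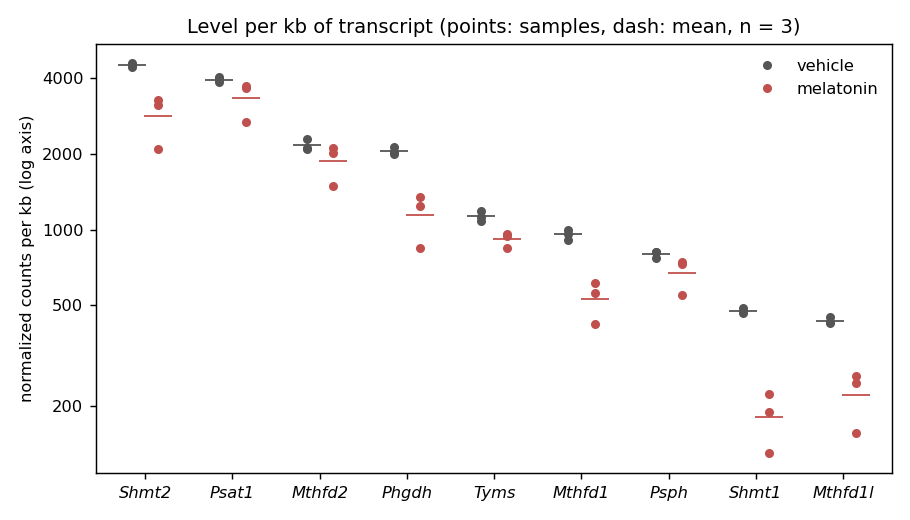
Normalized counts per kb of the canonical transcript (log axis) for the 9 enzymes, ordered by their vehicle mean, with a point for each vehicle (grey) and melatonin (red) sample and a dash at the mean of 3. *Shmt2* is first with vehicle at 4510 and second with melatonin at 2834, and *Shmt1* is last with melatonin at 180.

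The 3 vehicle samples were close to one another and the melatonin samples were not. The CV of the 9 genes was between 1.71% and 4.83% in vehicle and between 6.85% and 26.1% in melatonin. Melatonin replicate 1 was the lowest of the 6 samples for all 9 genes, and for 26.5% of all genes tested. Among the 4376 genes with every melatonin value below every vehicle value, it was the lowest for 56.0%. It was also the melatonin library with the lowest myeloid marker sum, 256 normalized counts, and the one with Y-linked transcripts, and which of these moves with its low values was not tested. Without it every vehicle library has Y-linked transcripts and neither remaining melatonin library has them, so donor sex and melatonin cannot be told apart in that fit. Melatonin replicate 1, the melatonin library of the same kind as the vehicle libraries, was at 27.1% to 74.7% of the vehicle mean over the 9 genes, a single sample with no test. In the fit without it the same number of the 9 genes, 6, was lower in limma, with log2 fold changes of −0.66 for *Phgdh*, −1.22 for *Shmt1*, −0.49 for *Shmt2*, −0.71 for *Mthfd1*, −0.78 for *Mthfd1l* and −0.25 for *Tyms*.

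Within each sample the ratio of paired enzymes does not depend on the scaling of that sample. In the 3 such pairs given here the groups did not overlap. Each gave a two-sided exact permutation p of 0.1, also after adjustment over the 4 pairs computed. This is the smallest p that 3 samples against 3 allow. Of single genes tested, 30.3% had all melatonin values below and 30.0% all above, and the share over all gene pairs was not computed. The log2 ratio of *Shmt2* over *Shmt1* was 2.93, 2.91 and 2.94 in vehicle and 3.69, 3.50 and 3.80 in melatonin replicates 1, 2 and 3. The mitochondrial transcript thus made up more of the pair in each melatonin sample, by 0.74 on average. For *Mthfd1l* over *Mthfd1* the difference was small, with a mean of −0.98 ± 0.05 in vehicle and −1.13 ± 0.13 in melatonin. The groups nearly touched, with the lowest vehicle value at −1.03 and the highest melatonin value at −1.04. The difference was −0.07 without melatonin replicate 1. The ratio of *Mthfd2* over *Mthfd2l*, another mitochondrial dehydrogenase of the family, went from 4.80 ± 0.10 to 4.13 ± 0.24. *Mthfd2l* itself was higher, with 163 ± 19.0 normalized counts in vehicle and 220 ± 10.8 in melatonin (log2 fold change 0.43, limma adjusted p = 0.032), a call lost without vehicle replicate 1 or 3 or melatonin replicate 2 or 3.

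**Figure D3:**
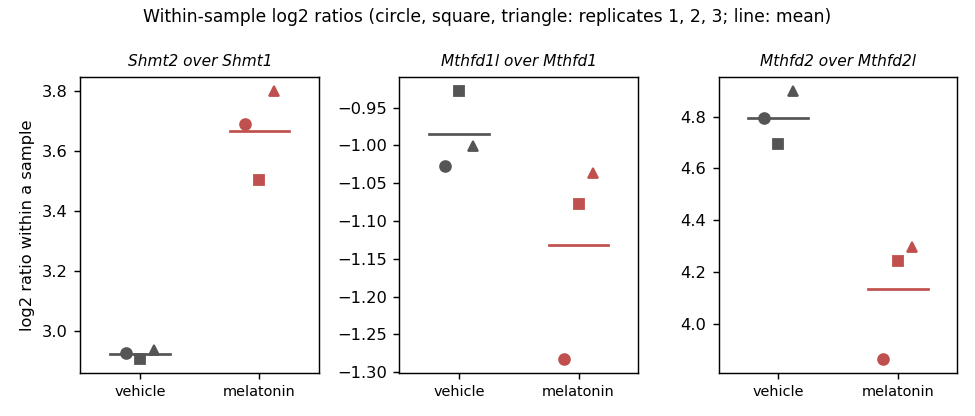
Log2 ratios of the normalized counts of 2 genes within each sample, for 3 pairs, with vehicle in grey, melatonin in red, replicates 1, 2 and 3 as circles, squares and triangles, and a line at the mean of 3; the axes do not start at 0. No pair overlaps between the groups, and *Shmt2* over *Shmt1* has the widest gap, from a mean of 2.92 to 3.67.

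The genes whose pattern over the 6 samples was most like that of each enzyme were found by the root mean square difference of log2 values, each centred on its vehicle mean, over genes whose mean normalized count was 100 or more. The nearest gene was *Utp18* for *Phgdh* (0.04), *Psph* for *Psat1* (0.02), *Sfr1* for *Psph* (0.02), *Wdr4* for *Shmt1* (0.09), *Pccb* for *Shmt2* (0.03), *Dis3* for *Mthfd1* (0.03), *Sbds* for *Mthfd2* (0.03), *Slc19a1* for *Mthfd1l* (0.05) and *Gpr65* for *Tyms* (0.02). Only for *Psat1* was the nearest gene another of the 9. *Psat1* was in turn the next nearest for *Psph* and for *Mthfd2*, so the 3 genes that were not called had like patterns. *Shmt1* was farthest from any of the others, with *Mthfd1l* as its nearest at 0.31.

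Of 16 other folate genes on the list, 12 were tested, 2 were lower and 3 were higher, or 16.7% and 25% beside 24.7% and 24.5% of all genes tested, and the median log2 fold change was −0.05. Without melatonin replicate 1 the counts were also 2 and 3. *Fpgs*, which adds the glutamate tail that keeps folate in the cell, fell from 588 ± 69.1 to 294 ± 28.6 normalized counts (limma adjusted p = 0.000447), with melatonin replicate 1 at 44.3% and replicates 2 and 3 at 52.8% of the vehicle mean. *Slc19a1*, the reduced folate carrier, was at 1552, 1557 and 1644 in vehicle and at 561, 977 and 975 in melatonin replicates 1, 2 and 3, a fall of −0.96 on the log2 scale (limma adjusted p = 0.0037). *Ggh*, which removes the glutamate tail, rose from 333 ± 17.1 to 518 ± 43.6, a log2 fold change of 0.63 (limma adjusted p = 0.00188). Thus the gene that adds the tail and the one that removes it moved in opposite directions, each without overlap. The number of higher genes was 1 without vehicle replicate 1 or 3 or melatonin replicate 2. *Slc25a32*, the mitochondrial folate carrier, at −0.21 (95% interval −0.40 to −0.01, limma adjusted p = 0.0782) and the mitochondrial *Aldh1l2* at −0.58 with a 95% interval from −1.82 to 0.67 were not called. *Aldh1l2* was at 22.6 normalized counts in melatonin replicate 1 and at 135 and 93.6 in replicates 2 and 3, where the vehicle mean was 99.8, and without replicate 1 its log2 fold change turned to 0.18.

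Among 11 other genes of serine and glycine, 7 were tested, 3 were lower and 1 was higher, or 42.9% and 14.3% beside 24.7% and 24.5% of all genes tested, with a median log2 fold change of −0.55. Without melatonin replicate 1, 4 were lower and 1 was higher. *Sfxn1*, the mitochondrial serine carrier, fell from 4001 ± 92.8 to 2742 ± 310 normalized counts (log2 fold change −0.55, limma adjusted p = 0.00163). *Gcat*, which makes glycine from a product of threonine breakdown, fell by 1.07 and *Gcsh*, the lipoyl carrier of the glycine cleavage system, by 0.97 on the log2 scale. *Srr*, serine racemase, was the higher gene at 0.68, and it was not called without vehicle replicate 2 or 3, which left 0. The methionine cycle list also holds genes that are not steps of the cycle, such as *Cth*, and the homologues *Ahcyl1* and *Ahcyl2*. Of its 12 genes 9 were tested, and 2 were lower and 3 higher. These were 22.2% and 33.3% beside the same 24.7% and 24.5%, with a median of 0.13. Without melatonin replicate 1 the counts were 2 and 2. *Ahcyl2*, a homologue of S-adenosylhomocysteine hydrolase, rose from 4286 ± 195 to 13614 ± 1373 normalized counts (log2 fold change 1.66) and *Ahcyl1* was at 0.49, a call lost without vehicle replicate 1, where it was 0.28, or vehicle replicate 2 or melatonin replicate 1 or 2. *Ahcy*, the hydrolase itself, was low in vehicle at 108 ± 8.54 and fell by 1.39 on the log2 scale. *Cth*, which releases cysteine from cystathionine, was at 178, 163 and 179 in vehicle and at 9.34, 77.6 and 50.3 in melatonin replicates 1, 2 and 3, a change of −2.33 ± 0.62 on the log2 scale (estimate ± SE, adjusted p = 0.0136 in limma). Without melatonin replicate 1 it was −1.46.

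Of 13 purine synthesis genes, all were tested, 10 were lower and none was higher, or 76.9% lower beside 24.7% of all genes tested, also none at an unadjusted p under 0.05 in limma or called in limma's voom, and the median log2 fold change was −0.50. *Atic*, the enzyme of the last steps and a user of formyl folate, fell from 777 ± 90.1 to 312 ± 63.7 normalized counts (log2 fold change −1.33, limma adjusted p = 0.000348). *Pfas* fell by 0.96 on the log2 scale, and *Gart*, the other user of formyl folate, had −0.50 (limma adjusted p = 0.0131), a call lost without vehicle replicate 3 and a value of −0.33 without melatonin replicate 1. Without that replicate 11 purine genes were lower, the added one being *Prps2*, and none was higher. *Prps1* at −0.59 and *Prps2* at −0.23, the latter not called, lie on chromosome X, as does *Ctps2* of the next list, which was higher at 0.38. Of 17 genes of pyrimidine and thymidylate synthesis, 11 were lower and 3 higher, or 64.7% and 17.6% beside 24.7% and 24.5% of all genes tested, with a median of −0.39, and without melatonin replicate 1 the counts were 10 and 3. The list also holds genes of steps that use no folate carbon, such as *Cad*. *Dctd*, dCMP deaminase, which supplies dUMP to TYMS, was at 318, 323 and 295 in vehicle and at 58.8, 145 and 132 in melatonin replicates 1, 2 and 3, a log2 fold change of −1.57 (limma adjusted p = 0.003). *Cad*, which starts pyrimidine synthesis, fell from 3073 ± 190 to 1220 ± 237 (−1.35 on the log2 scale), with melatonin replicate 1 at 31.1% and replicates 2 and 3 at 44.0% of the vehicle mean. *Tk2*, the mitochondrial thymidine kinase, rose by 1.03 and *Rrm2*, a subunit of ribonucleotide reductase, by 0.39 on the log2 scale. The cytosolic thymidine kinase *Tk1* had −0.81.

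**Figure D4:**
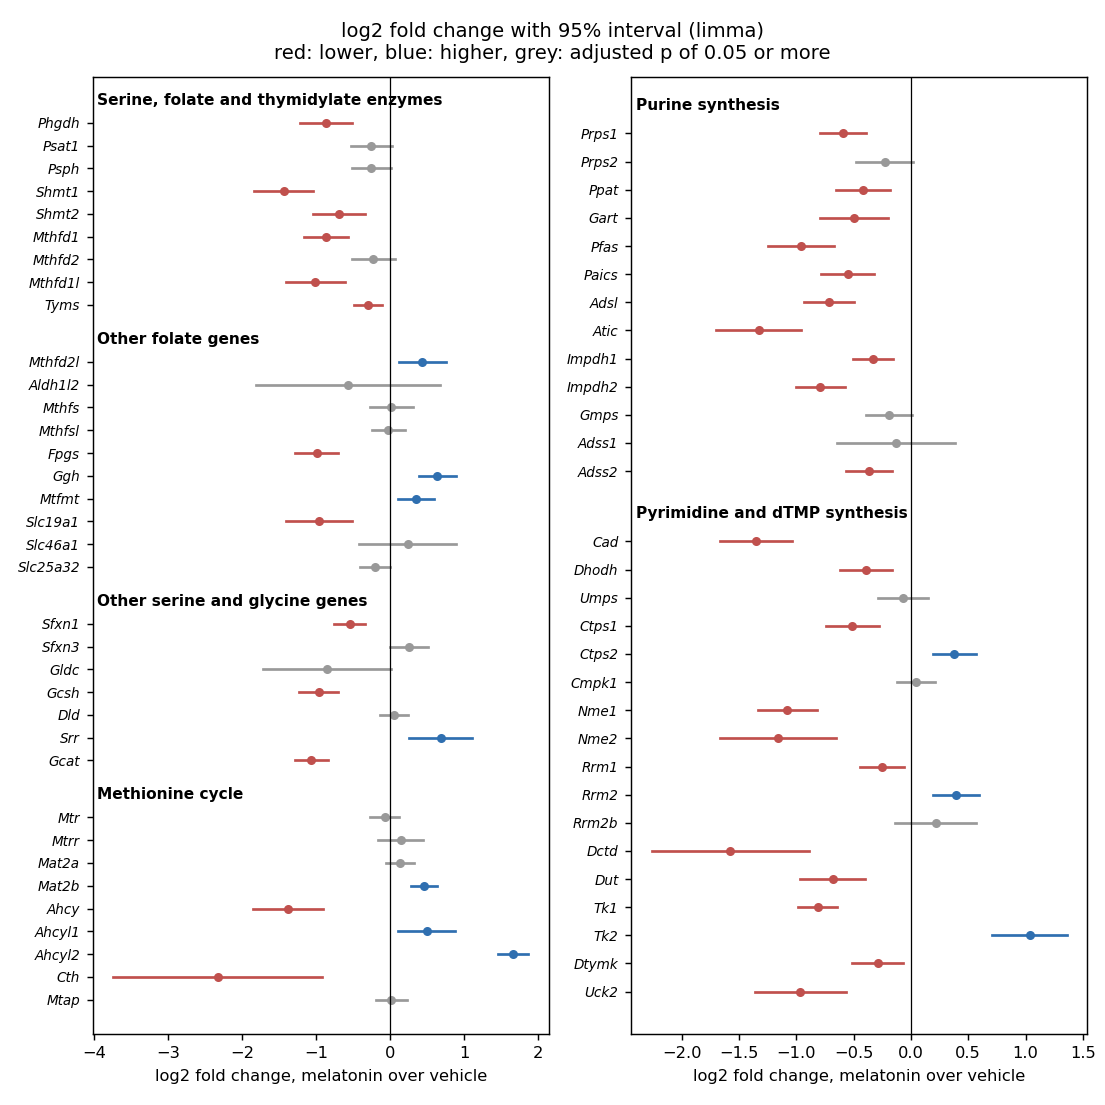
Log2 fold change (melatonin over vehicle) with its 95% interval from limma for tested genes of 6 lists (2 folate genes are not drawn), 3 samples per group, with called falls in red, called rises in blue and genes at an adjusted p of 0.05 or more in grey; the panels have different horizontal scales. All 13 purine genes lie left of 0, 10 of them in red, and the methionine cycle list spans from −2.33 for *Cth* to 1.66 for *Ahcyl2*.

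**Figure D5:**
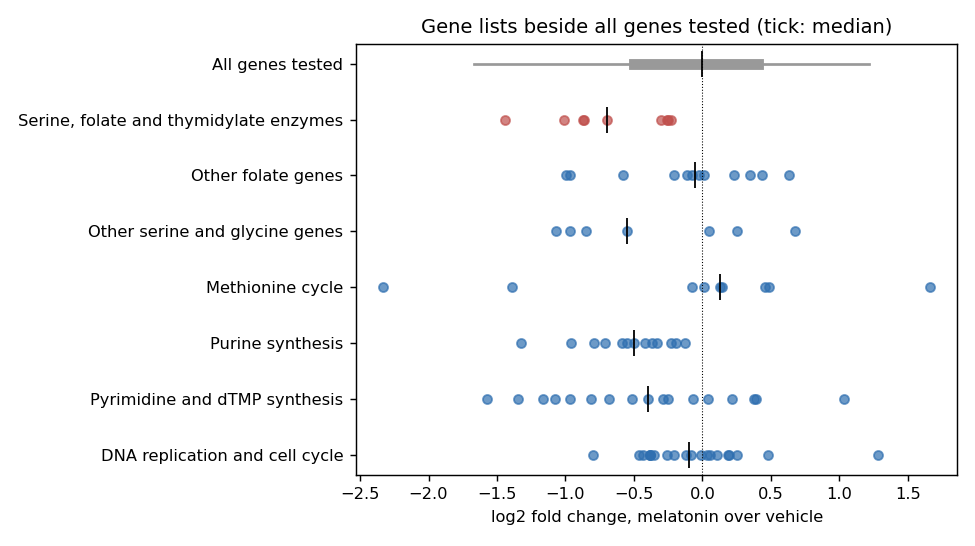
Log2 fold changes of the tested genes of 7 lists (a point for each gene, a tick at the median) beside all 14419 genes tested, drawn as the middle 90% (thin bar) and the middle 50% (thick bar). The median of the 9 enzymes is −0.70, that of the purine genes −0.50 and that of all genes −0.00.

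Of 9 genes on a list of regulators and stress response genes, 3 were lower and 3 higher, or 33.3% each beside 24.7% and 24.5% of all genes tested. The median log2 fold change was 0.02, and not all genes of this list regulate these enzymes. *Atf4*, which is known to drive serine synthesis genes, was at 5857, 5608 and 5315 normalized counts in vehicle and at 2983, 4128 and 4970 in melatonin replicates 1, 2 and 3. The log2 fold change was −0.50 (limma adjusted p = 0.0285), and the call was lost without any 1 of the vehicle samples or without melatonin replicate 2, while without melatonin replicate 1 the value was −0.30. *Asns*, a target of ATF4, was not called at −0.02 (95% interval −0.42 to 0.37), with melatonin replicate 1 at 70.8% and replicates 2 and 3 at 115.8% of the vehicle mean. Without replicate 1 its direction turned and it was called as higher, at 0.21 (adjusted p = 0.0323 in limma). *Atf5*, with a vehicle mean of 78.7 normalized counts, fell by 1.52 on the log2 scale. *Chac1* was higher at 0.46, a call lost without vehicle replicate 2 or 3 or melatonin replicate 2 or 3. *Myc* fell from 2649 ± 56.7 to 1852 ± 332 normalized counts (log2 fold change −0.53, limma adjusted p = 0.008), with melatonin replicate 1 at 55.7% and replicates 2 and 3 at 77.0% of the vehicle mean. The number of higher genes of this list was 1 without vehicle replicate 2 or 3 and 5 without melatonin replicate 1, where *Asns* and *Trib3* were added. The number of its lower genes was also 3 without melatonin replicate 1.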

How the data were processed

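RNA was sequenced from 3 melatonin and 3 vehicle cultures of aILC2s. For trimming the authors used Partek Flow 12.9.0 and for alignment to mm39 STAR 2.7.8a, and the E/M quantification of Partek, which can divide a read among genes, was run on Gencode M33. The authors then removed genes with low counts and scaled each sample by a median ratio. The deposited values are thus a signal, namely the estimated count over the size factor of its sample. Between 61.3% and 63.8% per sample were whole multiples of the value of 1 read at a tolerance of 0.01, so whole reads were not recovered. Totals of estimated counts were obtained by dividing by that value, found from values under 60. Gene names, positions and canonical transcripts were taken from Gencode M39 on GRCm39, the build named in the labels, and 16334 of 16381 identifiers matched.

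The log2 of the normalized count plus 1 was fitted in limma 3.58.1 (R 4.3.3, lmFit and eBayes with trend) on treatment alone, for genes reaching 10 in 1 sample or more, and Benjamini-Hochberg adjusted p-values under 0.05 were called. Log2 fold changes are on that scale, which understates low genes. The script was tested on simulated data. Ratios were compared by exact permutation in scipy 1.17.1. The count test of the study was not repeated, since the values are not counts. The 9 genes and the lists were chosen with earlier results of these data known. Named were the 9 genes, the 2 largest called rises and falls of each list, partners of the 9, fixed regulators and the nearest gene of each. *Itgam* and *Csf1r* at 0, *Cct6a* and *Smcr8*, and single genes such as *Gart*, *Tk1*, *Prps1*, *Trib3*, *Epcam*, *Trac*, *Ctps2* and *Il5* were named after their values had been seen. The results of 2 folate genes, and 1 ratio that uses one of them, are not reported here, although both genes are included in the counts of their list.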

Additional observations from a re-analysis of the deposited data

How the results depend on the processing

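The alternatives were pseudocounts of 0.1 and 10, no filter or a mean of at least 100, scaling to the same total, upper quartile scaling, quantile normalization, limma without trend, with sample weights or with voom, the replicate block, each sample left out in turn and, added after the data had been seen, a correction for transcript length. Under these 18 settings the 9 log2 fold changes stayed negative. Of the 6 calls, 5 were kept throughout, and *Tyms* lost its call without vehicle replicate 1 (log2 fold change −0.27), with values between −0.34 and −0.25 when 1 sample was left out. *Psat1*, *Psph* and *Mthfd2* were called under none of them. With each sample left out, the number of lower genes among the 9 was between 5 and 6. Over the same fits, the number of higher genes was between 1 and 3 for the other folate genes and between 0 and 1 for the other serine and glycine genes. It was between 1 and 5 for the regulators and stress response genes. The latter was 1 under quantile normalization. The number of lower genes of the methionine cycle list was 1 with a mean of at least 100 and 1 without trend. Same-numbered samples did not deviate together (correlations of −0.05, 0.01 and −0.05), and with the replicate block 6 of the 9 genes were lower and 3278 of all genes against 3565. The lowest estimated count of the 9 was 396, for *Shmt1* in 1 sample, a counting error of 5.03%.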
